A study of Mus musculus with 24 samples.

Results

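A set of 10 genes of extracellular matrix turnover was followed across 4 mouse genotypes: the tissue inhibitors of metalloproteinases Timp1, Timp2, Timp3 and Timp4, the membrane-anchored inhibitor Reck, the matrix metalloproteinases Mmp2, Mmp3, Mmp14 and Mmp15, and the aggrecanase Adamts1. They were chosen by symbol, with earlier results of these data known. They are 10 of the 52724 gene rows of the count table, and all 10 passed the filter on low counts. RNA was sequenced from whole hearts, with 6 libraries per genotype split evenly between 2 batches. In FKl/l MHC+ both alleles of Fkbp1a, the gene of the immunophilin FKBP12, were floxed and Cre recombinase was driven by the α-myosin heavy chain promoter, which the study's design places at embryonic day 9. In FKl/l MCK+ the floxed gene was combined with Cre under the muscle creatine kinase promoter, placed at embryonic day 13. MHC CRE Only was by its label the α-myosin heavy chain driver alone, and FKl/l was floxed without Cre. Both promoters act in muscle cells, so the fibroblasts, endothelial cells and macrophages that also make these transcripts are not their known targets. No libraries carried the creatine kinase driver alone, no ages are given and the labels do not tie libraries to separate animals. The p-values therefore describe the scatter among these libraries, which may be technical.

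Matrix metalloproteinases are zinc enzymes that cut collagens, laminins, proteoglycans and other matrix proteins, and most are secreted as inactive precursors. Tissue inhibitors of metalloproteinases bind the active enzymes, and the ratio of inhibitor to enzyme sets much of the net activity. In the heart this system is known for its part in the remodelling of the chamber wall after injury and in dilated cardiomyopathy. Transcript levels say nothing of how much enzyme is active.

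Libraries held between 27799403 and 40412640 counts over the gene rows, and mitochondrially encoded genes took 25.7 to 36.5% of them. Fkbp1a lay between 43.5 and 75.7 CPM, counts scaled to a common library total, in FKl/l MHC+, between 51.1 and 81.1 CPM in FKl/l MCK+ and between 121 and 147 CPM in FKl/l. In MHC CRE Only 5 libraries lay between 122 and 138 CPM, while 81.8 CPM was measured in the library labelled MHC CRE Only 1-3, which goes against its label. Summed markers of lung and airway epithelium reached 532 CPM in MHC CRE Only 2-3, with 153 CPM in FKl/l 1-1 and at most 28.4 CPM in any other library. Cardiomyocyte markers, 10 of 10 detected, summed to between 45030 and 57276 CPM in every library. Across the 16018 genes tested, 6158 (38.4%) differed between batches, and every comparison was fitted with a batch term.

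By edgeR's quasi-likelihood test, with p-values adjusted over all 16018 genes and a gene called at an adjusted p under 0.05, Timp1 rose in FKl/l MHC+ against each of the other genotypes. Reck fell in FKl/l MHC+ against MHC CRE Only and against FKl/l MCK+, and Mmp2 fell against FKl/l MCK+. The other 7 genes were called in no comparison. Between FKl/l MHC+ and FKl/l 1 of 10 was called, where 1.71% of all genes tested were. In FKl/l MHC+ against MHC CRE Only 2 of 10 were called, where 1.87% of all genes were. In FKl/l MHC+ against FKl/l MCK+ the count was 3 of 10, beside 2.15% of all genes. In FKl/l MCK+ against FKl/l 0 of 10 were called by this test, DESeq2 or limma voom, where edgeR called 0.0499% of all genes. The same 3 tools called 0 of 10 in MHC CRE Only against FKl/l, where edgeR called 0.0437% of all genes. At an unadjusted p under 0.05 there were 1 of 10 in FKl/l MCK+ against FKl/l, beside 5.24% of all genes, and 2 of 10 in MHC CRE Only against FKl/l, beside 12.9%. The median log2 fold change over the 10 genes was 0.02 for FKl/l MHC+ against FKl/l, 0.00 against MHC CRE Only and -0.07 against FKl/l MCK+, where the median over all genes lay between -0.02 and 0.00. It was 0.09 for FKl/l MCK+ against FKl/l, with 8 of 10 above 0, and 0.13 for MHC CRE Only against FKl/l, with 7 of 10 above 0, beside an all-gene median of 0.00 in both. The 5 comparisons share libraries, and their values are not independent. Because the 10 genes were chosen with earlier results known, these counts are a description and not a test of the set.

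**Figure D1:**
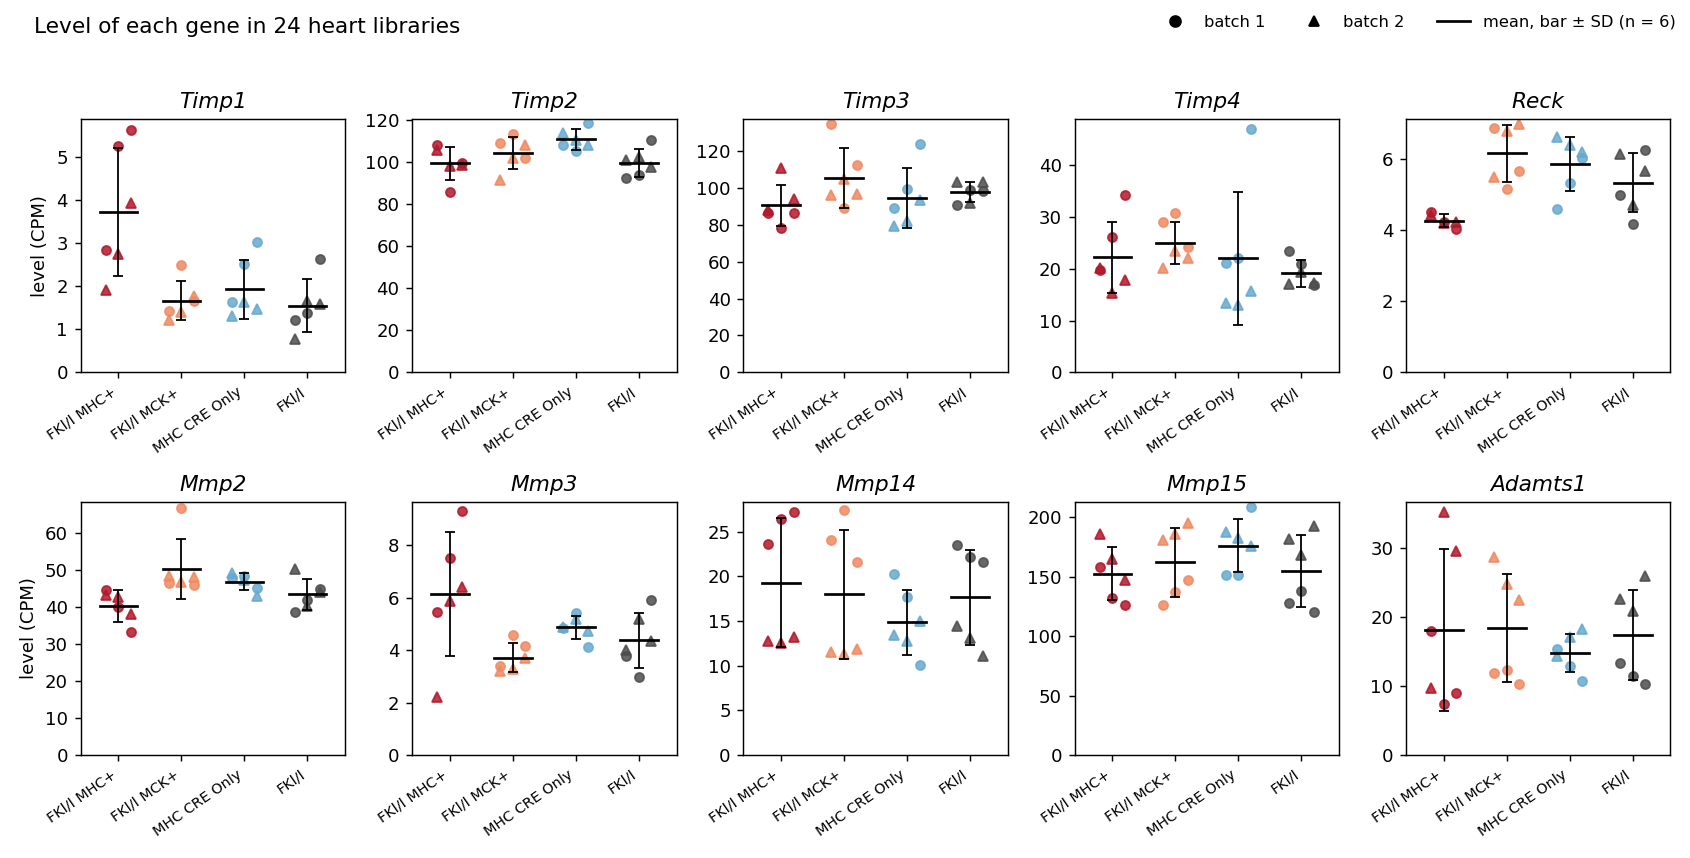
Level of each gene (CPM, vertical axis) in the 24 libraries by genotype, with circles for batch 1, triangles for batch 2, a line at the mean and a bar of 1 SD (n = 6). Timp1 was highest in FKl/l MHC+, where libraries lay between 1.92 and 5.64 CPM, Reck lay between 4.03 and 4.52 CPM there, and the batches did not overlap in 3 of 4 genotypes for Mmp14 and in 2 for Adamts1.

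Timp1 (ENSMUSG00000001131), a secreted inhibitor of most matrix metalloproteinases that is known to be induced in injured tissue, lies on the plus strand of chromosome X, at 20870166 to 20874735 in GRCm38. In FKl/l MHC+ the lowest, median and highest libraries had 1.92, 3.39 and 5.64 CPM. The same 3 values were 1.22, 1.54 and 2.50 CPM for FKl/l MCK+, 1.30, 1.64 and 3.03 CPM for MHC CRE Only, and 0.782, 1.49 and 2.63 CPM for FKl/l. In all, 5 of the 6 FKl/l MHC+ libraries were above every FKl/l and every FKl/l MCK+ library, and 3 of 6 were above every MHC CRE Only library, so the groups overlapped in each comparison, as all but 1.12% of genes did between FKl/l MHC+ and FKl/l. Mean levels were 3.72 ± 1.49 CPM for FKl/l MHC+, 1.66 ± 0.458 for FKl/l MCK+, 1.93 ± 0.682 for MHC CRE Only and 1.54 ± 0.618 for FKl/l (SD, n = 6 each). Timp1 was 2.36-fold higher in FKl/l MHC+ than in FKl/l by edgeR, a log2 fold change of 1.24 with an SE of 0.23 and an adjusted p of 0.00322. Against MHC CRE Only it was 1.93-fold higher (log2 fold change 0.95, SE 0.227, adjusted p = 0.0264), and against FKl/l MCK+ 2.20-fold higher (log2 fold change 1.14, SE 0.23, adjusted p = 0.00819). The transcript was scarce, with 68 to 190 counts per library in FKl/l MHC+ and 28 to 114 in the other genotypes, so counting error adds to the spread.

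Timp1 also differed between batches, with 1.79 ± 0.822 CPM in batch 2 and 2.65 ± 1.45 CPM in batch 1 over all genotypes (SD, n = 12 each), a log2 fold change of -0.54 with an adjusted p of 0.00989. Within each batch the 3 FKl/l MHC+ libraries were above all 3 FKl/l and all 3 FKl/l MCK+ libraries. In batch 1 FKl/l MHC+ lay between 2.85 and 5.64 CPM and FKl/l between 1.22 and 2.63 CPM, and in batch 2 between 1.92 and 3.93 CPM beside 0.782 to 1.65 CPM. Among all genes, 2.1% were higher without overlap in both batches in FKl/l MHC+ against FKl/l, and 1.35% in FKl/l MHC+ against FKl/l MCK+. Against FKl/l the log2 fold change was 1.42 in batch 1 alone and 1.08 in batch 2 alone, against FKl/l MCK+ 1.34 and 0.97, and against MHC CRE Only 0.97 and 0.95. Only the first of these 6 passed the threshold, with 3 libraries per genotype (adjusted p = 0.0486, the others between 0.0544 and 0.182). When each of the 24 libraries was left out in turn, the calls against FKl/l and FKl/l MCK+ held every time, with adjusted p up to 0.0139 and 0.0321. Against MHC CRE Only it was lost without FKl/l MHC+ 1-2, 1-3 or 2-3 or MHC CRE Only 1-1 or 2-1, with adjusted p up to 0.0823, and in the fit with no batch term (adjusted p = 0.166). Without the 3 libraries that stand apart, FKl/l 1-1 and MHC CRE Only 1-3 and 2-3, the log2 fold change was 1.14 against FKl/l and 1.06 against MHC CRE Only (adjusted p = 0.00677 and 0.0336).

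The gene lies within the synapsin gene Syn1, on the opposite strand and with 0 exon bases in common. Syn1 averaged 1.12 ± 0.373 CPM in FKl/l MHC+ beside 1.03 ± 0.292 CPM in FKl/l (SD, n = 6 each), a log2 fold change of 0.11 with an adjusted p of 0.869, and was called in no comparison. The library kit keeps strand, while the strand setting of the counting is not given in the sources used here. The windows shown are those of Timp1 and Mmp3, whose levels moved together across libraries, and that of Reck, the inhibitor that was lower in FKl/l MHC+. Each runs 5′ to 3′ from 250 bases before to 50 bases after the gene's start, as given by RefSeq on GRCm38.p6, on the plus strand, at chrX:20869916-20870215 for Timp1, chr9:7445572-7445871 for Mmp3 and chr4:43875280-43875579 for Reck. Capitals mark matches, on either strand, to the 6 motifs searched.
Timp1: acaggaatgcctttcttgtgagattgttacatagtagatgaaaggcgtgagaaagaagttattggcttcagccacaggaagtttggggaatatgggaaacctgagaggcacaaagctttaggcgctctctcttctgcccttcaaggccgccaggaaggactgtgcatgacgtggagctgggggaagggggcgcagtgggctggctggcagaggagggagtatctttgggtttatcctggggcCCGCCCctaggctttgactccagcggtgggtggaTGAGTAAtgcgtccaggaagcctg
Mmp3: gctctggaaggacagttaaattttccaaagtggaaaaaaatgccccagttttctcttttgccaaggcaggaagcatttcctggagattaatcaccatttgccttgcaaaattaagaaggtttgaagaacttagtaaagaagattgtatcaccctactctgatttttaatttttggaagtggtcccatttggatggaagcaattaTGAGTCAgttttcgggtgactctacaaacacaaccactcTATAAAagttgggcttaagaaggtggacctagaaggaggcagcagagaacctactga
Reck: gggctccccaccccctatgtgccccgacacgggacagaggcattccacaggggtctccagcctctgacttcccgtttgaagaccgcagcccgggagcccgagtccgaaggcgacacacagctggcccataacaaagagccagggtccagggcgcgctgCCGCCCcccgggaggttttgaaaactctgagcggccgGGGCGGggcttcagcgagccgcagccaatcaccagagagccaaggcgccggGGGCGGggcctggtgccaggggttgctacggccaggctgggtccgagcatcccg

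AP-1 was searched as TGANTCA and a variant of it as TGAGTAA. The GC box was searched as GGGCGG and the Ets core as CCGGAA. The letters TATAAA stood for the TATA box and CACGTG for the E-box. No match in these 3 windows overlaps another. The Timp1 window holds the AP-1 variant from position 27 after the start and a GC box on the other strand from 8 bases before it. The Mmp3 window holds TGAGTCA, a form of the AP-1 motif, from 46 bases before the start, and TATAAA from 7 bases before it. In the Reck window there are 3 GC boxes, from 92, 55 and 4 bases before the start, the first on the other strand. Of 32851 promoters of this length, 7.81% hold the AP-1 motif, 2.68% the variant, 35.7% a GC box, 14.9% the Ets core, 13.6% the TATA box and 7.15% the E-box. Windows were matched for 9 of the 10 genes, not for Mmp2, and neither AP-1 form was found in the other 7. A match describes letters and is not evidence of binding.

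Timp2 (ENSMUSG00000017466, chromosome 11, minus strand), an inhibitor that also takes part in the activation of pro-MMP2 at the cell surface, averaged 99.4 ± 7.88 CPM for FKl/l MHC+, 104 ± 7.6 for FKl/l MCK+, 111 ± 4.83 for MHC CRE Only and 99.6 ± 6.66 for FKl/l (SD, n = 6 each). It was called in no comparison, and its 95% interval for FKl/l MHC+ against FKl/l ran from -0.13 to 0.13 on the log2 scale. Timp3 (ENSMUSG00000020044, chromosome 10, plus strand), which stays bound to the matrix and also inhibits ADAM and ADAMTS proteases, averaged 90.6 ± 11.1, 105 ± 16.3, 94.5 ± 16.1 and 97.6 ± 5.46 CPM in the same order of genotypes. Its log2 fold change in FKl/l MHC+ was -0.22 against FKl/l MCK+ (SE 0.0995, adjusted p = 0.291) and smaller in size against the others. Timp3 lies within Syn3 on the opposite strand and shares 1733 exon bases with it, and Syn3 was called in no comparison. Without the strand setting of the counting, the reads of the shared part cannot be assigned with certainty.

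Timp4 (ENSMUSG00000030317, chromosome 6, minus strand) is the inhibitor known for its high expression in heart muscle. Its lowest, median and highest libraries had 15.3, 20.0 and 34.2 CPM for FKl/l MHC+, 20.3, 23.9 and 30.8 CPM for FKl/l MCK+, 13.0, 18.4 and 47.1 CPM for MHC CRE Only, and 17, 18.3 and 23.4 CPM for FKl/l. The highest of all, 47.1 CPM, was the library labelled MHC CRE Only 1-3, and the next in that genotype had 22 CPM. No comparison called it. In FKl/l MCK+ against FKl/l every library of FKl/l MCK+ was above every FKl/l library of its own batch, as 0.668% of all genes were, with a log2 fold change of 0.37 (SE 0.193, 95% interval -0.03 to 0.77, adjusted p = 0.963). Timp4 lies within Syn2 on the opposite strand and shares 90 exon bases with it, and Syn2 was likewise called in no comparison.

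Reck (ENSMUSG00000028476) encodes a membrane-anchored inhibitor of MMP2, MMP9 and MMP14 that is also known as a vascular Wnt co-receptor, and lies on the plus strand of chromosome 4, at 43875530 to 43944806. In FKl/l MHC+ the lowest, median and highest libraries had 4.03, 4.23 and 4.52 CPM. The values were 5.15, 6.23 and 6.97 CPM for FKl/l MCK+, 4.6, 6.11 and 6.63 CPM for MHC CRE Only, and 4.18, 5.33 and 6.25 CPM for FKl/l. All 6 FKl/l MHC+ libraries lay below every FKl/l MCK+ and every MHC CRE Only library, and 5 of 6 FKl/l libraries lay above them all. Among all genes the groups did not overlap in 0.805% for FKl/l MHC+ against MHC CRE Only and in 1.19% for FKl/l MHC+ against FKl/l MCK+. Reck fell to 4.27 ± 0.174 CPM in FKl/l MHC+, against 6.16 ± 0.811 CPM in FKl/l MCK+ (SD, n = 6 each). By edgeR the log2 fold change was -0.53 with an SE of 0.107 and an adjusted p of 0.0084, a level that fell by 30.5%. Against the 5.86 ± 0.759 CPM of MHC CRE Only its level fell by 27% (log2 fold change -0.45, SE 0.107, adjusted p = 0.0243). Against the 5.33 ± 0.83 CPM of FKl/l it was not called by edgeR, DESeq2 or limma voom (adjusted p = 0.128, 0.104 and 0.164), with a log2 fold change of -0.32 and an SE of 0.107 by edgeR.

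In both batches all 3 FKl/l MHC+ libraries lay below all 3 of FKl/l MCK+ and of MHC CRE Only, as did 1.75% of all genes in each of these comparisons. Within batches the log2 fold change of Reck was -0.42 in batch 1 and -0.58 in batch 2 against FKl/l MCK+, and -0.29 and -0.59 against MHC CRE Only, and the batch 2 values passed the threshold (adjusted p = 0.0385 and 0.0147). Leaving out any 1 of the 24 libraries kept the call against FKl/l MCK+ (adjusted p up to 0.0301). Against MHC CRE Only it was lost without FKl/l MHC+ 1-3 or 2-3 or MHC CRE Only 2-1 or 2-2 (adjusted p up to 0.0631), and without the 3 libraries that stand apart (log2 fold change -0.42, adjusted p = 0.091). It was also lost with no batch term (adjusted p = 0.0852) and with a term for Y-linked transcripts (log2 fold change -0.35, adjusted p = 0.134). The Y-linked Ddx3y was higher in the same comparison, with 42.0 CPM for FKl/l MHC+ and 30.0 CPM for MHC CRE Only (log2 fold change 0.49, adjusted p = 0.00701 by edgeR). It was the only 1 of 4 Y-linked genes called there. The 4 summed to between 69.9 and 96.3 CPM for FKl/l MHC+ and between 53.1 and 69.3 CPM for MHC CRE Only. Counts per library were 135 to 165 in FKl/l MHC+ and 149 to 290 in the other genotypes.

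Some markers of vessel and stromal cells fell in the comparisons in which Reck was called, and some also against FKl/l, where Reck was not called. Of 12 endothelial markers 8 fell in FKl/l MHC+ against FKl/l MCK+, where 2.15% of all genes were called. Their summed level lay between 874 and 1098 CPM for FKl/l MHC+, 1053 and 1349 for FKl/l MCK+, 1004 and 1171 for MHC CRE Only, and 922 and 1251 for FKl/l. Against MHC CRE Only 1 of the 12 fell, Robo4 (log2 fold change -0.33, adjusted p = 0.00791), where 1.87% of all genes were called. Against FKl/l Robo4 was again the 1 that fell (log2 fold change -0.32, adjusted p = 0.0076 by edgeR), where 1.71% of all genes were called. At an unadjusted p under 0.05 there were 8 of the 12 against FKl/l, beside 14.7% of all genes. The pericyte receptor Pdgfrb fell in both comparisons in which Reck did, with log2 fold changes of -0.36 against FKl/l MCK+ and -0.33 against MHC CRE Only (adjusted p = 0.00079 and 0.00183), as 1 of 11 mural cell markers. Summed mural markers, of which Des is the most abundant, lay between 3540 and 4375 CPM for FKl/l MHC+ (mean 3996), 3012 and 3629 for FKl/l MCK+ (3401), 3428 and 4155 for MHC CRE Only (3744), and 2773 and 3578 for FKl/l (3316). Des, which muscle cells also express, had 3082 CPM for FKl/l MHC+ and rose against the 2372 CPM of FKl/l (log2 fold change 0.37, adjusted p = 0.0399, above 0.05 in 10 of 24 leave-one-out fits, up to 0.119). Fibroblast markers summed to between 1195 and 1438 CPM for FKl/l MHC+, 1404 and 1708 for FKl/l MCK+, 1273 and 1497 for MHC CRE Only, and 1308 and 1662 for FKl/l, and 2 of 14 fell against FKl/l MCK+, Gsn and Dpt. Gsn also fell against FKl/l (log2 fold change -0.39, adjusted p = 0.0274 by edgeR, above 0.05 in 6 of 24 leave-one-out fits). All markers of these 3 lists passed the filter on low counts. Over the 24 libraries, centred by genotype and batch, Reck had a correlation of -0.02 with the endothelial sum and 0.11 with the fibroblast sum, a description over libraries that share depth and batch. In whole heart RNA fewer cells of a type and less RNA per cell cannot be told apart, and the part of cell makeup in the Reck result was not tested.

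**Figure D2:**
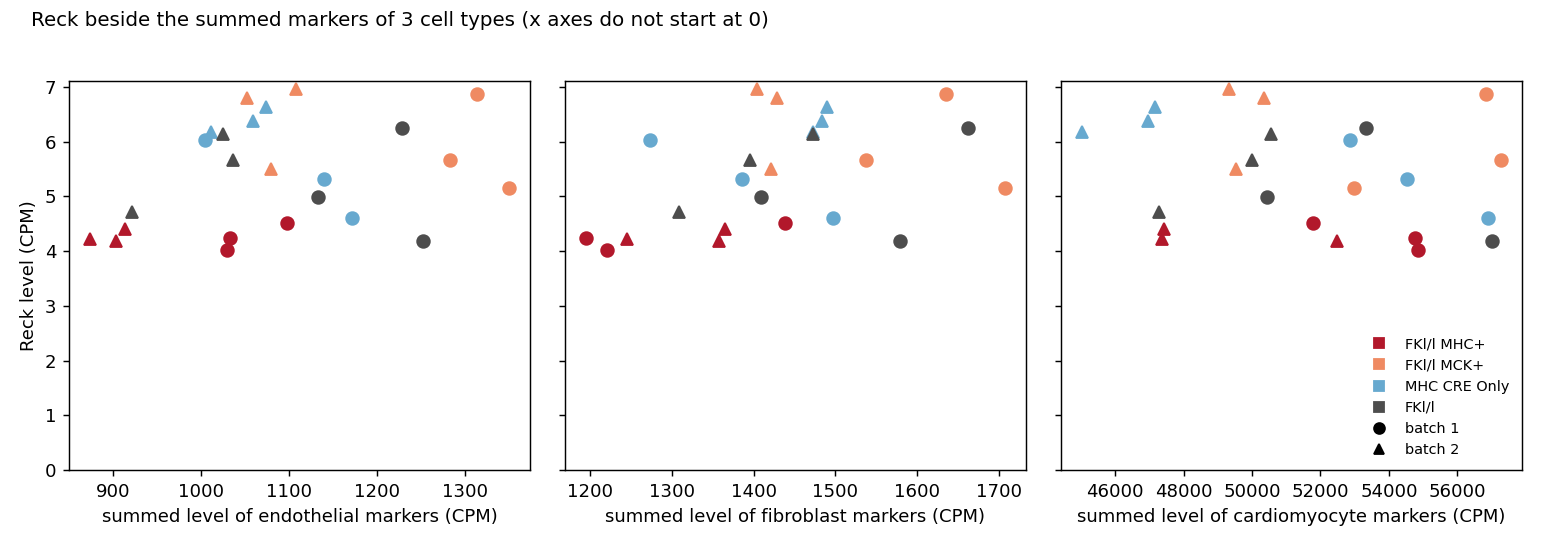
Reck (CPM, vertical axis) against the summed level of endothelial, fibroblast and cardiomyocyte markers (CPM, horizontal axes, which do not start at 0) in 24 libraries, coloured by genotype. The 6 FKl/l MHC+ libraries lie between 4.03 and 4.52 CPM of Reck, with FKl/l 1-2 among them at 4.18 CPM. In the left panel they lie between 874 and 1098 CPM of endothelial markers.

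Mmp2 (ENSMUSG00000031740, chromosome 8, plus strand, 92827291 to 92853420), a gelatinase made mainly by fibroblasts, had 33.1, 41.4 and 44.6 CPM in its lowest, median and highest FKl/l MHC+ libraries and 45.8, 47.3 and 66.8 CPM in FKl/l MCK+. These 2 groups did not overlap, as was so for 1.19% of all genes, and the gap was narrow, from 44.6 to 45.8 CPM. The MHC CRE Only values were 43.0, 47.7 and 49.1 CPM, and those of FKl/l 38.8, 43.1 and 50.4 CPM. Mmp2 fell to 40.3 ± 4.24 CPM in FKl/l MHC+, against 50.3 ± 8.1 CPM in FKl/l MCK+ (SD, n = 6 each), which by edgeR is a log2 fold change of -0.32 with an SE of 0.0862 and an adjusted p of 0.0443. Leaving out 1 library at a time ended this call in 14 of 24 cases, among them that without FKl/l MCK+ 1-2, the library with 66.8 CPM, and the adjusted p reached 0.154. It was also not called with RLE size factors (adjusted p = 0.0508), with mitochondrial genes left out (0.055), with no batch term (0.0978) or with the 2 genotypes fitted alone (0.101). Within batches the log2 fold change was -0.39 in batch 1 and -0.20 in batch 2, and neither passed the threshold (adjusted p = 0.123 and 0.252). Over the 24 libraries, centred by genotype and batch, Mmp2 had r of 0.69 with the summed fibroblast markers and 0.60 with the endothelial ones. With the mural ones r was -0.61. These r are given as a description, and the part of fibroblast content in its difference was not tested. The difference between FKl/l MCK+ and FKl/l was not called (log2 fold change 0.21, SE 0.086, adjusted p = 0.854, unadjusted p = 0.0186).

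Mmp3 (ENSMUSG00000043613, chromosome 9, plus strand, 7445822 to 7455975), a stromelysin that cuts many matrix proteins and activates other metalloproteinases, had 2.21, 6.15 and 9.31 CPM in its lowest, median and highest FKl/l MHC+ libraries. The values were 3.20, 3.55 and 4.57 CPM for FKl/l MCK+, 4.11, 4.87 and 5.42 CPM for MHC CRE Only, and 2.98, 4.18 and 5.91 CPM for FKl/l. The low FKl/l MHC+ value is the library 2-1, below every other library of the study, while the other 5 were above every FKl/l MCK+ library. With all libraries Mmp3 was not called (log2 fold change against FKl/l MCK+ 0.71, SE 0.206, adjusted p = 0.0698, and against FKl/l 0.47, SE 0.204, adjusted p = 0.272). Without FKl/l MHC+ 2-1 it was called in both (log2 fold change 0.89 and 0.65, adjusted p = 0.0016 and 0.0159), and with all libraries DESeq2 called it against FKl/l MCK+ (adjusted p = 0.0148). In batch 1 the log2 fold change was 0.92 against FKl/l MCK+ and 0.85 against FKl/l, and in batch 2 it was 0.52 and 0.09.

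Timp1 and Mmp3 moved together across libraries. Over all 24, after batch means were removed from log2 CPM, Pearson's r was 0.68, the highest among the 45 pairs of the 10 genes, and after genotype means were removed too it was 0.69. The libraries share depth and batch, and r is given as a description. In every genotype Timp1 was lowest in library 1-1 of batch 1 and in 2-1 of batch 2, a pattern by replicate number that the centring does not remove. FKl/l MHC+ 1-3 had the highest level of both genes and FKl/l MHC+ 2-1 the lowest of both in its genotype. The genes most like each were sought with batch means alone removed, so differences between genotypes add to these r. Those most like Timp1 over the 24 libraries were Cdkn1a, Pfkp and Mt2 (r = 0.91, 0.86 and 0.84). Those most like Mmp3 were Myd88, Ccl6 and Mt2 (r = 0.79, 0.75 and 0.74). Mt2, a metallothionein, is thus on both lists. Summed macrophage markers, 11 of 11 detected, had r of 0.53 with Timp1 and 0.63 with Mmp3 within genotype and batch. Values of this size were not particular to this pair, with 0.52 for Mmp14 and -0.68 for Mmp15. The macrophage sum lay between 188 and 249 CPM for FKl/l MHC+, 187 and 253 for FKl/l MCK+, 172 and 231 for MHC CRE Only, and 185 and 240 for FKl/l, and the ranges of all 4 genotypes overlapped. Of the 11 markers 1 was called, Mrc1 in FKl/l MHC+ against MHC CRE Only (log2 fold change 0.32, adjusted p = 0.0464, and above 0.05 in 15 of 24 leave-one-out fits), and the part of macrophages in the Timp1 result was not tested.

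**Figure D3:**
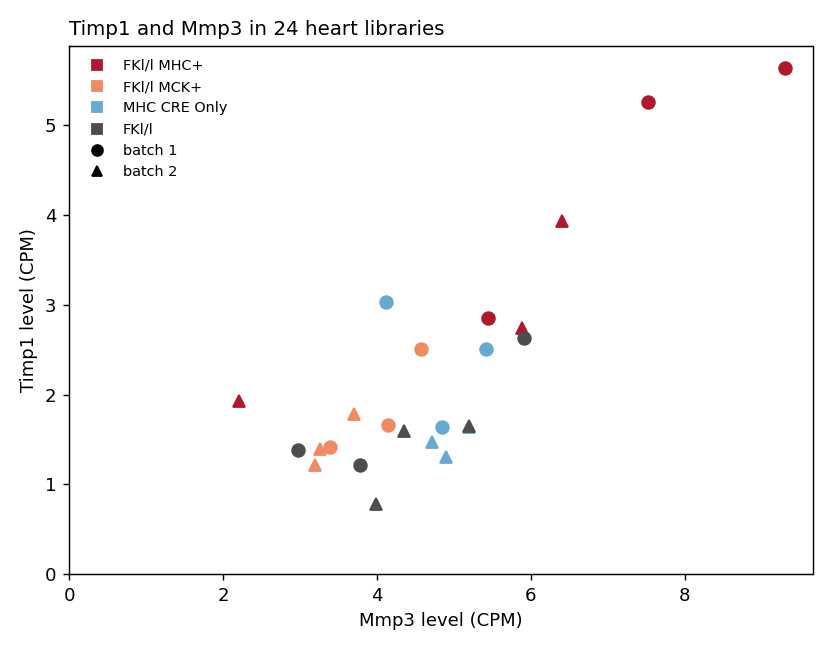
Timp1 (CPM, vertical axis) against Mmp3 (CPM, horizontal axis) in 24 libraries, coloured by genotype, with circles for batch 1 and triangles for batch 2. The FKl/l MHC+ libraries run from 1.92 CPM of Timp1 and 2.21 CPM of Mmp3 to 5.64 and 9.31 CPM, and 3 of them lie beyond all libraries of the other genotypes in both genes.

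Mmp14 and Mmp15, membrane-anchored metalloproteinases, and Adamts1, a secreted protease that cuts the proteoglycans aggrecan and versican, were called between batches and in no comparison of genotypes. Mmp14 (ENSMUSG00000000957, chromosome 14, plus strand) had 12.7 ± 1.19 CPM in batch 2 and 22.1 ± 4.76 CPM in batch 1 (SD, n = 12 each), a log2 fold change of -0.78 with an adjusted p of 2.14e-06. Mmp15 (ENSMUSG00000031790, chromosome 8, plus strand) had 179 ± 13.5 CPM in batch 2 and 144 ± 23.8 CPM in batch 1 (log2 fold change 0.32, adjusted p = 0.000134). Adamts1 (ENSMUSG00000022893, chromosome 16, minus strand) had 22.5 ± 7.08 CPM in batch 2 and 11.9 ± 2.83 CPM in batch 1 (log2 fold change 0.90, adjusted p = 0.000481). Timp4 was also lower in batch 2, with 17.9 ± 3.29 CPM in batch 2 and 26.3 ± 8.19 CPM in batch 1 (log2 fold change -0.56, adjusted p = 0.00276), so 5 of the 10 genes differed between batches, beside 38.4% of all genes. Mmp14 was at 10.1 CPM, below every other library, and Mmp15 at 209 CPM, above every other, in the library labelled MHC CRE Only 1-3. Mmp14 and Mmp15 moved in opposite directions within genotype and batch (r = -0.72 over 24 libraries, given as a description).

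Between genotypes Mmp14 averaged 19.3 ± 7.18 CPM for FKl/l MHC+, 18 ± 7.25 for FKl/l MCK+, 14.8 ± 3.63 for MHC CRE Only and 17.6 ± 5.36 for FKl/l (SD, n = 6 each). For Mmp15 the means were 153 ± 22.3, 162 ± 29.1, 176 ± 22 and 155 ± 30.1 CPM in the same order, and for Adamts1 18.1 ± 11.8, 18.4 ± 7.85, 14.8 ± 2.74 and 17.4 ± 6.58 CPM. The 95% intervals for FKl/l MHC+ against FKl/l ran from -0.19 to 0.40 on the log2 scale for Mmp14, from -0.19 to 0.17 for Mmp15 and from -0.48 to 0.56 for Adamts1. An edgeR test of the interaction of genotype with batch called 0 of the 10 genes, 2 of them at an unadjusted p under 0.05, and 4.91% of all genes. With no filter on low counts it called Timp3, Timp4, Mmp14 and Adamts1. The 3 batch 2 libraries of FKl/l MHC+ lay between 12.5 and 13.2 CPM of Mmp14 but between 9.67 and 35.3 CPM of Adamts1, so Adamts1 varied within a genotype and batch as well.

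**Figure D4:**
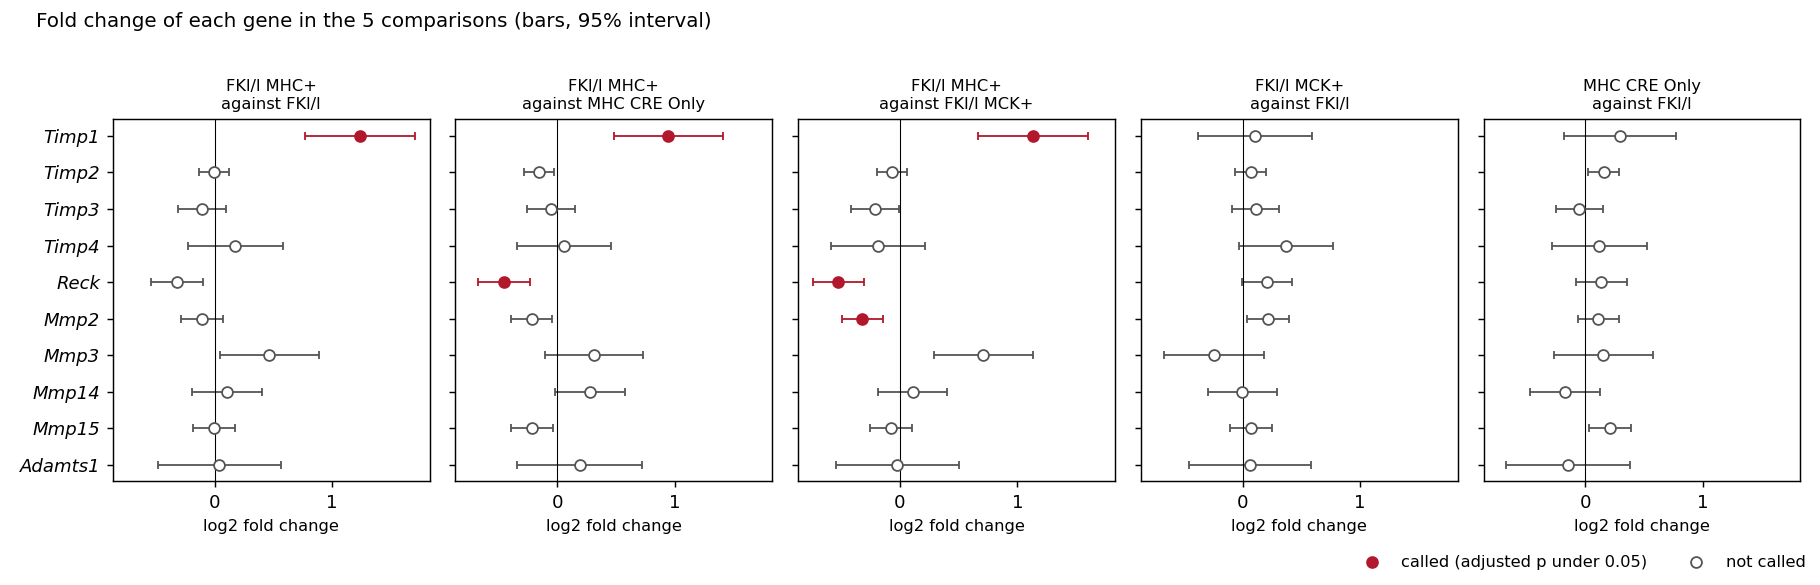
Log2 fold change (horizontal axis) of each gene in the 5 comparisons, with 95% intervals, filled points where the adjusted p was under 0.05. Timp1 is called in the 3 left panels at 1.24, 0.95 and 1.14, Reck against MHC CRE Only and FKl/l MCK+ at -0.45 and -0.53, Mmp2 against FKl/l MCK+ at -0.32, and no gene in the 2 right panels.

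Levels of different genes were compared per length, as CPM per kilobase of the union of a gene's exons. Mmp15 was highest at 29.9 ± 4.85 and Timp2 next at 26.6 ± 2.04 CPM per kilobase (SD over 24 libraries), and these 2 overlapped. Mmp2 with 13.4 ± 1.82 and Timp3 with 11.9 ± 1.64 followed, also overlapping each other. Timp4 (3.75 ± 1.26), Adamts1 (3.24 ± 1.42), Mmp14 (2.92 ± 0.985), Mmp3 (2.65 ± 0.858) and Timp1 (2.50 ± 1.39) formed a group whose neighbours did not differ beyond their spread. Within FKl/l MHC+ Timp1 had the highest mean of these 5 on this length, at 4.19 CPM per kilobase beside 3.77 for Timp4 and 3.42 for Adamts1. In the other genotypes Timp1 had the lowest, at 1.87 for FKl/l MCK+, 2.18 for MHC CRE Only and 1.74 for FKl/l. Reck was lowest at 1.13 ± 0.206 CPM per kilobase, with its highest library, at 1.46, above the lowest Timp1 library, at 0.881. With the longest coding transcript as the length, Timp3 moved above Mmp2, and Mmp14 moved above Timp4 and Adamts1. On that length, 3238 bases for Mmp14 in place of 5960, Mmp14 was also above Timp1 within FKl/l MHC+. The top rank of Timp1 there thus depends on the length used. Summed over the 4 inhibitors on the per-length scale, Timp1 made up 9.38 ± 3.67% for FKl/l MHC+, 4.07 ± 0.996% for FKl/l MCK+, 4.65 ± 1.15% for MHC CRE Only and 4.04 ± 1.41% for FKl/l (SD, n = 6 each). Timp2 made up 57.2 ± 4.23% in FKl/l MHC+ beside 60.0 ± 1.46% in FKl/l, and it was the most abundant inhibitor transcript in all 4 genotypes.

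**Figure D5:**
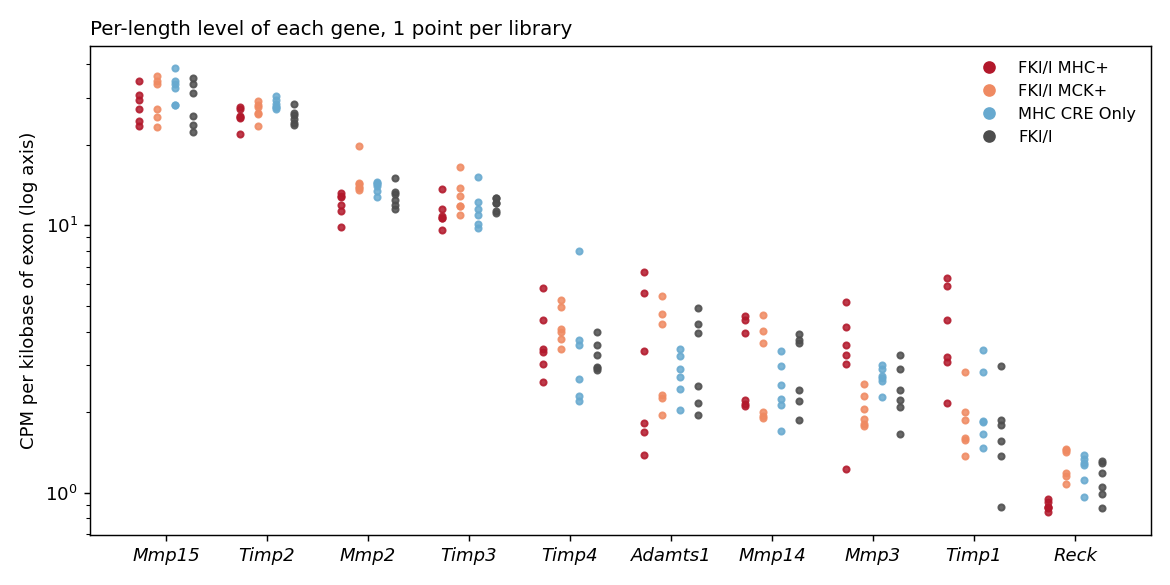
Per-length level of each gene (CPM per kilobase of exon, log axis), 1 point per library, coloured by genotype and ordered by the mean over 24 libraries. Mmp15 and Timp2 lie at the top with means of 29.9 and 26.6, and Reck at the bottom with 1.13.

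Of 19 other metalloproteinase genes 10 passed the filter, and each had 1 call at most. Mmp23 was higher in FKl/l MHC+ than in FKl/l, with 11.2 and 8.39 CPM (log2 fold change 0.42, SE 0.11, adjusted p = 0.0451, above 0.05 in 13 of 24 leave-one-out fits, up to 0.146). Mmp28, an epilysin, was lower in FKl/l MHC+ than in MHC CRE Only, with 4.31 and 6.07 CPM (log2 fold change -0.48, SE 0.125, adjusted p = 0.042, above 0.05 in 12 of 24, up to 0.114). The gelatinase Mmp9, a target of Timp1, averaged 1.17 CPM in FKl/l MHC+ and in FKl/l alike and was called in no comparison. Mmp1a, Mmp7 and Mmp20 had 0 counts in all libraries, and Mmp8 at most 11 in any. Of 15 other ADAMTS genes tested edgeR called 0 in each comparison, with 1 of them at an unadjusted p under 0.05 in FKl/l MHC+ against FKl/l, 4 against MHC CRE Only and 2 against FKl/l MCK+, where 14.7%, 15.8% and 15.4% of all genes were. Of 10 membrane sheddases of the ADAM family Adam19 alone was called, lower in FKl/l MHC+ than in FKl/l MCK+ (log2 fold change -0.51, SE 0.105, adjusted p = 0.00944, kept in all 24 fits) and than in MHC CRE Only (-0.40, adjusted p = 0.0425, lost in 11 of 24, up to 0.114).

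Among 19 tested genes of metalloproteinase activation, the plasminogen system and clearance, 4 were called in some comparison. Pcsk6, a proprotein convertase, fell in FKl/l MHC+ against MHC CRE Only (56.4 and 72.3 CPM, -0.36 on the log2 scale, adjusted p = 0.00916) and against FKl/l MCK+ (71.2 CPM there, log2 fold change -0.33, adjusted p = 0.0144, lost in 2 of 24, up to 0.0566). Cav1, a caveolin, fell against FKl/l MCK+ (log2 fold change -0.27, adjusted p = 0.017, lost in 2 of 24, up to 0.07). Cd63, a tetraspanin known as a cell surface partner of TIMP1, rose against FKl/l MCK+ (log2 fold change 0.28, adjusted p = 0.0497, lost in 18 of 24, up to 0.143), and Cd44, a hyaluronan receptor, rose against MHC CRE Only (log2 fold change 0.43, adjusted p = 0.0436, lost in 14 of 24, up to 0.136). The list's median log2 fold change in FKl/l MHC+ lay between -0.08 and -0.06 in its 3 comparisons. In none of these did the median of all genes go below -0.02.

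Matrix proteins that these enzymes cut were called mostly in FKl/l MHC+ against FKl/l MCK+, where 6 of 35 tested fell and 1 rose. Of all genes 2.15% were called in that comparison. The laminin chains Lama2 (48.1 and 60.4 CPM, -0.33 on the log2 scale, adjusted p = 0.00641) and Lamb1 (log2 fold change -0.29, adjusted p = 0.0284) and the fibulins Fbln1 (133 and 178 CPM, -0.41, adjusted p = 0.0173) and Fbln5 (-0.37, adjusted p = 0.0232) were among those that fell. Fbln1 was itself higher in FKl/l MCK+ than in FKl/l (178 and 121 CPM, log2 fold change 0.55, adjusted p = 0.00859), and in FKl/l MHC+ against FKl/l it was not called (0.13, adjusted p = 0.523). Thbs4, a matricellular thrombospondin, was the 1 that rose and did so against all 3 genotypes, with 11.2 CPM for FKl/l MHC+, 7.08 for FKl/l MCK+, 5.50 for MHC CRE Only and 6.35 for FKl/l (log2 fold change 0.83 against FKl/l, adjusted p = 0.00157). The median log2 fold change of the 35 was -0.19 against FKl/l MCK+, -0.12 against MHC CRE Only and 0.08 against FKl/l. In the leave-one-out fits against FKl/l MCK+ the adjusted p of Lamb1 passed 0.05 in 6 of 24 (up to 0.0893), that of Fbln5 in 4 (up to 0.0786) and that of Fbln1 in 1 (up to 0.0572), while those of Lama2 and Thbs4 stayed under it in all.

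Genes of pathways known to act on Timp1 were examined next. Of 13 tested genes of the interleukin 6 family and its signalling, Socs3, a feedback inhibitor of STAT3, rose in FKl/l MHC+ against FKl/l MCK+ (log2 fold change 0.52, SE 0.136, adjusted p = 0.0395, lost in 9 of 24, up to 0.123) and was the sole call. Among 10 tested AP-1 and Ets genes 2 were called in FKl/l MHC+ against FKl/l MCK+, where 2.15% of all genes were, and 6 were at an unadjusted p under 0.05, where 15.4% of all genes were. The AP-1 subunits were not called by edgeR, and Junb, picked here after its values were seen, had a log2 fold change of 0.88 in FKl/l MHC+ against FKl/l MCK+ (unadjusted p = 0.00206, adjusted p = 0.0705). Ets1 fell against FKl/l (-0.38 on the log2 scale, adjusted p = 0.0129, above 0.05 in 2 of 24 leave-one-out fits, up to 0.0555) and against FKl/l MCK+ (-0.45, adjusted p = 0.00356). Ets2 fell against FKl/l MCK+ (-0.28, adjusted p = 0.0148) and against MHC CRE Only (-0.26, adjusted p = 0.0222), above 0.05 in 1 and 4 of 24 (up to 0.0539 and 0.0683). In FKl/l MHC+ against FKl/l MCK+ the median log2 fold change was -0.06 over the tested genes of the interleukin 6 list, 0.39 over the AP-1 and Ets list, -0.06 over the other metalloproteinases, -0.14 over the other ADAMTS genes and -0.12 over the ADAM genes. It was -0.29 over the endothelial markers and -0.22 over the fibroblast markers, where the median of all genes was -0.01.

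The genes whose log2 CPM was most like that of each of the other members, batch means removed, are given with Pearson's r over 24 libraries as a description. Reck was closest to Clip2, Slc44a1 and Pdgfrb (r = 0.85, 0.84 and 0.84), and Mmp2 to Plcg1, Hspg2 and Pdgfrl (0.86, 0.82 and 0.81). Mmp14 was closest to Ift20, Atxn7l3b and Larp7 (0.94, 0.89 and 0.88), and Mmp15 to Map7d1, Tmem201 and Lman2 (0.92, 0.91 and 0.90). Adamts1 was closest to Tob2, Ppp1r10 and Spty2d1 (0.86, 0.84 and 0.82). Among the inhibitors Timp2 was closest to Bicra, Tnxb and Numbl (0.79, 0.78 and 0.77), Timp3 to Pik3r1, Crim1 and C1galt1 (0.84, 0.83 and 0.83) and Timp4 to Adgrg1, Fam107a and Sdcbp (0.77, 0.76 and 0.74).

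The authors' deposited tables list all 10 genes in each comparison, with an adjusted p under 0.05 for 0 of them. Their statistic was 0 where the fold change was small, as for Mmp14 in MHC CRE Only against FKl/l (log2 fold change -0.25). For Mmp2 in FKl/l MHC+ against FKl/l MCK+ (-0.30) it was -0.43. Such p-values may test for more than a difference from 0, so they are not like for like with those of edgeR. In the authors' deposited table for FKl/l MHC+ against FKl/l, Timp1 had a log2 fold change of 1.26 and an adjusted p of 0.0687, the lowest among the 10. The authors' deposited tables give Timp1 a log2 fold change of 1.13 against FKl/l MCK+ (adjusted p = 0.215) and 0.93 against MHC CRE Only (adjusted p = 0.902). For Reck the authors' deposited table against FKl/l MCK+ has -0.50 with an adjusted p of 1. When edgeR was asked for evidence of a fold beyond 1.2, Timp1 was called against FKl/l alone (adjusted p = 0.0219), and no other gene of the 10 in any comparison.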

How the data were processed

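RNA from whole mouse hearts was read in 24 libraries. Per the submitters' processing notes the authors used bcl2fastq 2.17, FastQC, Trim Galore, STAR and RSEM with the mm10 build, while the role of each tool, its annotation and how strand was set in counting are unstated there. The deposited count table holds whole-number counts per gene as the authors left them, not normalized. The authors also deposited, for each comparison, a table with a log2 fold change, a moderated statistic (a score with no fixed range) and p-values, of which only the members' values were read.

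Counts were tested with edgeR 4.0.16 in R 4.3.3: genes with low counts were filtered by filterByExpr, libraries scaled by TMM, and a quasi-likelihood model with genotype and batch fitted to all 24 libraries, so that all groups share 1 estimate of spread. P-values were adjusted by Benjamini-Hochberg over 16018 genes. DESeq2 1.42.0 and limma 3.58.1 (voom) were alternatives. The steps were tested on simulated data. Rows named by transcript, 0.873 to 4.28% of counts, stayed out of the library totals and tests. Libraries of 1 genotype differed by more than counting noise (chi-square per degree of freedom 8.02 to 148 over 60 pairs), and none was merged with another as a repeat deposit.

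Positions came from the GENCODE annotation of GRCm38 and promoter windows from RefSeq. Named by rule are the 10 members, the host genes Syn1, Syn2 and Syn3, up to 4 called genes of each other list by smallest adjusted p, and the 3 genes most alike each member. Outside this rule Fkbp1a, Fbln5, Junb, Mmp9, Mmp8, Mmp1a, Mmp7 and Mmp20 are named too. The members and lists were chosen with earlier results of these data known.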

Additional observations from a re-analysis of the deposited data

Results flagged for a closer look

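The level of each of the 10 genes in each genotype was examined for a library far from the others of its genotype, 40 groups of 6 libraries in all, of which chance alone would mark about 1 in 20. In 2 of the 40 groups a library stood apart by Dixon's ratio at its 95% level.

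Timp4 reached 47.1 CPM in the library labelled MHC CRE Only 1-3, where the next highest library of that genotype had 22 CPM. This library's Fkbp1a level also goes against its label. Mmp2 reached 66.8 CPM in FKl/l MCK+ 1-2, where the next highest had 48.3 CPM. The Mmp2 call against FKl/l MCK+ was lost without that library.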

How the results depend on the processing

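Of 10 genes, 1 was called in FKl/l MHC+ against FKl/l, 2 against MHC CRE Only and 3 against FKl/l MCK+. Against FKl/l the count was 0 in batch 2 only. Against MHC CRE Only it was 0 with no batch term, in batch 1 only and in the test against a fold of 1.2, and 1 in batch 2 only, without the 3 libraries that stand apart and with a term for Y-linked transcripts. Against FKl/l MCK+ it was 0 in batch 1 only and in the fold test, 1 in batch 2 only, 2 (Mmp2 lost) with RLE size factors, mitochondrial genes left out, no batch term or only those genotypes fitted, and 4 (Mmp3 added) by DESeq2 and with the Y-linked term. Over all genes the 3 counts, 274, 299 and 345 as reported, were 558, 571 and 562 by DESeq2, 120, 42 and 103 with no batch term, 214, 78 and 211 in batch 1, 160, 915 and 171 in batch 2, and 42, 17 and 17 in the fold test, and without the 3 libraries that stand apart 496, 228 and 486. The interaction with batch gave 0, but 4 with no filter on low counts, a setting in which 2481 of 30118 genes were called. The causes of these changes were not tested, beyond that a batch alone has 3 libraries per genotype. Leaving out 1 library at a time gave 1 to 2, 0 to 2 and 2 to 4 called genes in the 3 comparisons, and 0 in both others.

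By the correlation of their deviations, same-numbered libraries did not deviate together (36 pairs, r from -0.24 to 0.16, median -0.03, 3 over 0.1). The numbers are therefore not taken as pairs in the main fit. Timp1 taken alone was lowest in library 1-1 of batch 1 and in 2-1 of batch 2 in every genotype. With the replicate number as a block the counts were 1, 2, 2, 0 and 0, and Mmp2 against FKl/l MCK+ had an adjusted p of 0.0552. In that edgeR fit the log2 fold change of Timp1 was 1.24 against FKl/l (SE 0.17, adjusted p = 0.000165). Against MHC CRE Only it was 0.92 (SE 0.167, adjusted p = 0.00582). Of the single-gene values under all alternatives, 430 no longer passed the threshold, 4 newly passed it and 3286 kept their side of it. Values called in either fit changed sign in 0 cases and values called in neither in 76, such as Timp3 in FKl/l MHC+ against MHC CRE Only (log2 fold change -0.05 as reported and 0.19 in batch 2 alone). A term for the mitochondrial share (310, 460 and 596 genes called), and leaving out FKl/l 1-3 and FKl/l MCK+ 1-2, batch 1 libraries of low mitochondrial share, were alternatives chosen after seeing the data (274, 528 and 307 genes). Without those 2 libraries Mmp2 against FKl/l MCK+ had a log2 fold change of -0.20 and an adjusted p of 0.134. Timp1 and Reck rest on few counts per library, which limits the precision of their folds.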
